A study of Caenorhabditis elegans with 2 samples.

Results

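The snoRNA genes described here are the 163 genes annotated as snoRNA on the nuclear chromosomes of Caenorhabditis elegans that do not lie wholly inside a protein-coding gene on the same strand. They are 163 of 46890 annotated genes and 163 of 346 snoRNA genes; the other 183 lie inside such a host. The rule of choice used gene positions only and no measured value, although earlier results of these data were known when it was made. The data are ChIP-seq peak lists for AMA-1, the biggest subunit of RNA polymerase II and the one that holds its active site, from L4 larvae of the wild-type strain N2. Whole animals of both sexes were pooled, their exact age is unknown, and all samples belong to 1 group of 2 biological replicates with no genotype or treatment to compare. A peak was taken to belong to a gene when its summit, its point of highest signal, lay within 500 bp of the annotated 5′ end, and each peak's signal value is the authors' own. Whole animals hold many cell types, so polymerase present in few cells and weak polymerase presence in all cells cannot be told apart.

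Small nucleolar RNAs guide chemical modification of other RNAs, mostly ribosomal RNA. Box C/D snoRNAs direct 2′-O-methylation and carry a C box near the 5′ end and a D box near the 3′ end, while box H/ACA snoRNAs direct pseudouridylation and end a few bases after an ACA. Many animal snoRNAs are cut out of the introns of host genes and need no promoter of their own. Others are transcribed from promoters of their own, and in animals the related small nuclear RNA (snRNA) genes are known for a proximal sequence element upstream of the start. The RNA targets of the individual members are not annotated in the sources used here, so the members are described by their position, their letters and their neighbours.

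The members ran from 62 to 344 bases with a median of 134. By chromosome they numbered 38 on I, 36 on II, 16 on III, 31 on IV, 19 on V and 23 on X. Of the 163, 38 overlapped a protein-coding gene on the opposite strand, 33 of them with their middle in an intron and 5 in a coding exon. A further 7 lay inside another gene on the same strand that was not protein-coding, and 1 overlapped a same-strand protein-coding gene in part. The authors' set of peaks selected by irreproducible discovery rate (IDR), a measure of how alike peaks rank in replicates, is called the IDR set here. No peak of that set was the best peak of more than 1 member.

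The following genes show what the members with the strongest signal look like. Their sequences are read from the RefSeq genome (WBcel235, the same assembly as ce11) on the strand of the gene, with TGATGA in the first 25 bases, CTGA in the last 15 bases or a 3′ ACA in capitals. W06H8.17 had the highest signal of all members, and Y55F3BR.9, C16D9.10 and C18A3.12 each hold both box C/D motifs in these stretches. T26A8.6 holds only the D box there, because its TGATGA lies after the first 25 bases. In this order the genes lie at chrV:6227355-6227550, chrIV:867056-867133, chrV:8247888-8247961, chrII:5701662-5701726 and chrIV:8428614-8428739, all on the minus strand except C18A3.12.
W06H8.17: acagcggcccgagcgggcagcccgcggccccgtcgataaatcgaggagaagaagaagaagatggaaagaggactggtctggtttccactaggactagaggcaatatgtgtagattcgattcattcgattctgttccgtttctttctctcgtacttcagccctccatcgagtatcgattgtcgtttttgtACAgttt
Y55F3BR.9: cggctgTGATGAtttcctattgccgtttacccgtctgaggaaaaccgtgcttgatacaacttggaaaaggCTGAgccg
C16D9.10: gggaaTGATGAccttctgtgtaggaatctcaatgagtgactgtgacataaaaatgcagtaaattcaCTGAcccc
C18A3.12: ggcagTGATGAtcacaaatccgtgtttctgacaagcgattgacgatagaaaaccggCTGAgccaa
T26A8.6: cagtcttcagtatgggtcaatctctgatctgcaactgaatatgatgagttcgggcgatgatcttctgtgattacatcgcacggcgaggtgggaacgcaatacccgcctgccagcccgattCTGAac

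The 100 bases before the 5′ end of 4 strongly occupied members show the upstream letters that several results below turn on. In capitals are CGNAAC, where N is any base, and TGTC 8 bases after it, on the strand of the gene. These letters are called the upstream element below. They were chosen after the upstream sequences of the strongest members had been read, so their presence in those members is a description. K07C10.2 is shown because it was also among the 10 strongest members and has no such letters. The stretches are chrIV:867134-867233, chrIV:8428740-8428839, chrV:8247962-8248061 (all on the minus strand) and chrII:11167117-11167216 (plus strand).
Y55F3BR.9 upstream: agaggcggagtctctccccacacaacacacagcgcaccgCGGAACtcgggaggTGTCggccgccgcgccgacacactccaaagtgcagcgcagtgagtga
T26A8.6 upstream: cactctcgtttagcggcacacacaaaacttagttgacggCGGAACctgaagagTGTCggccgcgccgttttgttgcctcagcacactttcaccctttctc
C16D9.10 upstream: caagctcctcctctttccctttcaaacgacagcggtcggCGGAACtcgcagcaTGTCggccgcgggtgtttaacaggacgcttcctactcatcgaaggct
K07C10.2 upstream: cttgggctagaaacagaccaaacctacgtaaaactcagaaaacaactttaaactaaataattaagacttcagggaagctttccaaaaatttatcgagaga

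AMA-1 summits were found at about 1 in 5 of these snoRNA genes. Of the 163 members, 33 had a summit of the IDR set in this window, or 20.2% (95% Clopper-Pearson interval 14.4 to 27.2%), against 3.56% of all annotated genes. The same was true of 39 of the 183 snoRNA genes inside hosts (21.3%, interval 15.6 to 28.0%). It was also true of 14 of 99 snRNA genes other than spliced leader genes (14.1%) and of 5.57% of protein-coding genes. Among spliced leader genes it was 11 of 30 (36.7%), above the members, and among microRNA genes 36 of 261 (13.8%). The members' share was above that of all genes and of protein-coding genes, and its interval overlapped widely with that of the hosted snoRNA genes. The intervals cover counting error over genes only, and no p-value is given because the design holds 1 group.

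The replicates gave similar shares. Because the IDR set holds 2082 peaks, each replicate's list was also limited to its 2082 strongest peaks. Then 31 members (19.0%) had a summit in replicate 1, against 3.19% of all genes, and 39 members (23.9%) in replicate 2, against 3.69% of all genes. That is 21.5% ± 3.47 (SD, n = 2) of the members and 18.6% ± 2.32 (SD, n = 2) of the hosted snoRNA genes. The replicate values of the 2 classes overlapped, at 19.0 and 23.9% for the members and 16.9 and 20.2% for the hosted genes.

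**Figure D1:**
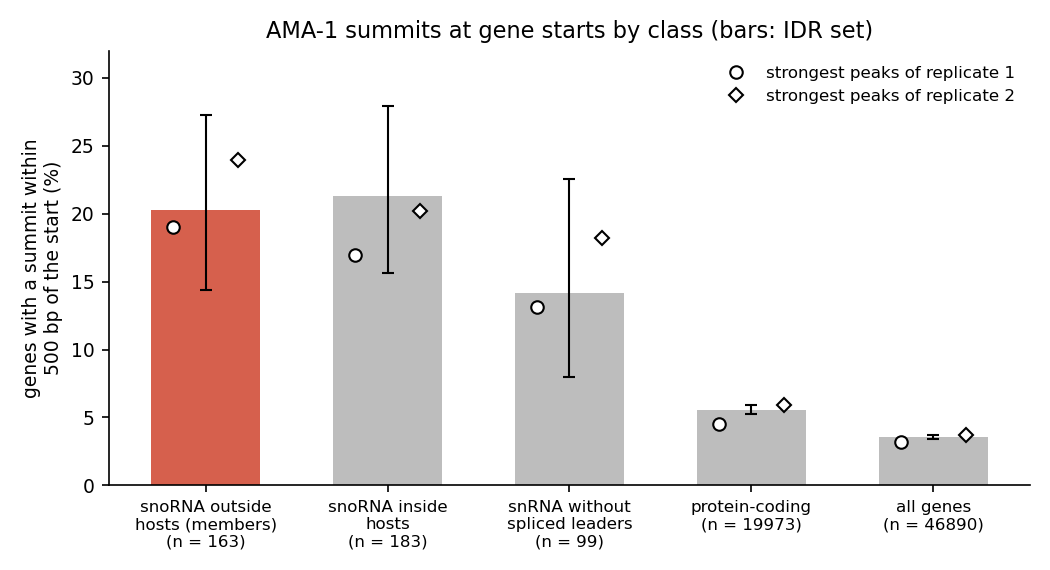
Share of genes (percent) with an AMA-1 summit within 500 bp of the start, by gene class: bars are the IDR set with 95% Clopper-Pearson intervals, circles the 2082 strongest peaks of replicate 1 and diamonds those of replicate 2. The snoRNA genes outside hosts stood at 20.2% and those inside hosts at 21.3%, both above the 3.56% of all genes.

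In the full lists of 30000 peaks each, which include background, 89 members had a summit in the pooled list, against 22.1% of all genes. In replicate 1 this was 85 members, against 21.6% of all genes, and in replicate 2 it was 94 members, against 21.6% of all genes. Both replicates had a summit at 70 members (42.9%), replicate 1 alone at 15, replicate 2 alone at 24 and neither at 54. Of the hosted snoRNA genes, 100 (54.6%) had a summit in both replicates, and of all genes 14.5%. The share with a peak in both was lower in the members than in the hosted genes, a difference that was not tested.

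The strongest member was W06H8.17, on chromosome V, which lies inside the non-coding RNA gene W06H8.12 on the same strand. Its IDR signal was 274, which is rank 26 of 2082, with a signal of 162 (rank 31 of 30000) in replicate 1 and 123 (rank 29) in replicate 2. Signal values of different lists are on different scales, so only their ranks can be set side by side, and here they were almost the same. The start of the protein-coding gene W06H8.6 lay 422 bp from the summit, so the snoRNA gene, its surrounding gene and that neighbour cannot be told apart as sources of the signal.

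Y55F3BR.9, a box C/D gene antisense to an intron of Y55F3BR.2, had an IDR signal of 263 (rank 28), with 128 (rank 50) in replicate 1 and 136 (rank 23) in replicate 2. T26A8.6 had 238 (rank 33), with 143 (rank 39) in replicate 1 and 93.7 (rank 52) in replicate 2. F59C6.15 had 234 (rank 36), with 164 (rank 29) in replicate 1 and 70.7 (rank 104) in replicate 2. The summits of these 3 genes had no protein-coding start within 500 bp, and all 3 genes ranked 104 or better among the 30000 peaks of each replicate.

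Y74C9A.6, near the start of chromosome I, had an IDR signal of 193 (rank 59), with ranks of 68 in replicate 1 and 96 in replicate 2. The box C/D gene C16D9.10 had a signal of 190.3 (rank 62), with ranks of 108 and 60 in replicates 1 and 2. smy-3 had 182 (rank 67), but its replicates lay further apart, with rank 301 in replicate 1 and rank 32 in replicate 2. The start of the protein-coding gene D1086.3 lay 153 bp from the smy-3 summit, so those 2 genes share it.

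F47G4.9 had an IDR signal of 179.6 (rank 68), and its summit lay 466 bp from the start of hmg-6, which encodes an HMG-box protein. Y53F4B.47 had 177 (rank 72), with its summit 309 bp from the start of cmtr-1, a cap methyltransferase gene. K07C10.2, inside the long intergenic non-coding RNA gene K07C10.8, had 172 (rank 77), with ranks of 88 in replicate 1 and 130 in replicate 2. ZK484.11 had 158 (rank 100), with ranks of 103 in replicate 1 and 174 in replicate 2. The last 2 had no protein-coding start or end within 500 bp of the summit, and the summit lay in no protein-coding gene.

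The next 9 of the 20 strongest members had IDR signals of 149.9 (rank 113) down to 89.7 (rank 403). In falling order they were C18A3.12, C07A9.14, K02C4.7, M7.15, T08B6.64, C05H8.3, Y75B12B.12, F25H2.15 and C34E11.20. Among them, C07A9.14 lies antisense to an intron of ncx-7, a sodium/calcium exchanger gene, K02C4.7 to an intron of ltd-1 and C05H8.3 to an intron of ckk-1, a kinase gene of calcium signalling. The summit at Y75B12B.12 lay 211 bp from the start of Y75B12B.11. Replicate ranks were furthest apart, in number, at F25H2.15 (336 in replicate 1 and 1550 in replicate 2) and C34E11.20 (1383 in replicate 1 and 223 in replicate 2). All 20 still lay among the 2082 strongest peaks of both replicates.

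**Figure D2:**
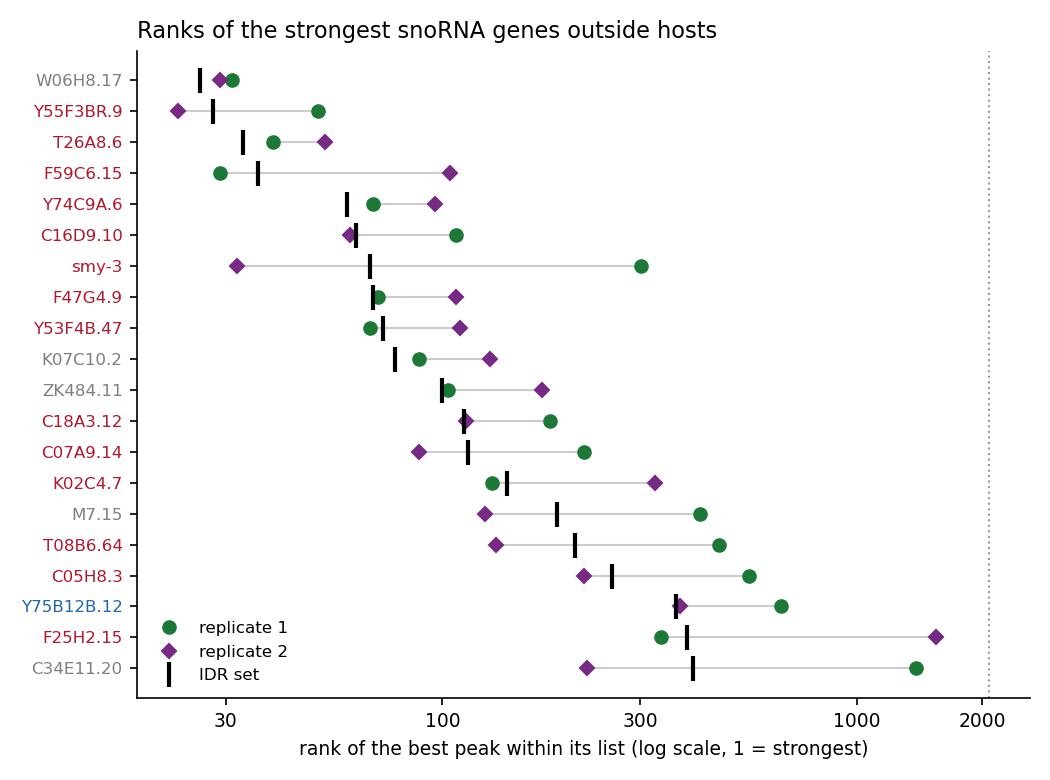
Rank of the best peak within its list for the 20 members of highest IDR signal, strongest at the top, on a log axis where 1 is the strongest peak: circles are replicate 1, diamonds replicate 2 and vertical ticks the IDR set, and the dotted line marks rank 2082. Names are red where the upstream element was found (14 genes), blue where B-box letters were found (1 gene) and grey for the others; W06H8.17 and T26A8.6 had ranks close together, and smy-3, F25H2.15 and C34E11.20 far apart.

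Of the 33 members with an IDR summit, 31 had a summit in the full list of replicate 1, 32 in that of replicate 2 and 30 in both. T21B4.20 and W03B1.17 had none in replicate 1, although they ranked 210 and 386 in replicate 2, and F32E10.10 had none in replicate 2 and rank 1697 in replicate 1. Limited to the 2082 strongest peaks, 25 of the 33 were found in both replicates. In the 30 with both, the 2 replicate summits lay a median of 32.5 bp apart and within 50 bp at 22. Replicate 1 gave the better rank at 14 and replicate 2 at 16. The IDR set was made of the 2082 strongest pooled peaks, so its ranks hold no error between replicates of their own.

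At the edge of the IDR set, the 3 members with the lowest signal inside were T03F7.8 with 49.2 (rank 1849), M03D4.78 with 48.7 (rank 1912) and K11D9.10 with 47.1 (rank 2060). The 3 just outside had pooled signals of 44.8 at T02E1.9 (rank 2332), 44.5 at T04A8.17 (rank 2363) and 42.0 at F37A8.7 (rank 2658). T02E1.9 and T04A8.17 ranked 1462 and 2068 in replicate 2, among its 2082 strongest, and 6145 and 4048 in replicate 1. F37A8.7 ranked 1796 in replicate 1 and had no summit in replicate 2. The values on either side of the edge were thus close, and membership of the set there rested on small differences.

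The summits at the members lay on both sides of the 5′ end. Of the 33, 11 lay upstream of it, 15 inside the gene and 7 past the 3′ end, and the median position was 67 bp downstream of the 5′ end, with a range of -467 to 236 bp. That median joins 15 members with the upstream element at a median of 100 bp and 18 without it at -34 bp, and it was 14.5 bp without the members that have near-identical sequence elsewhere. In the 39 hosted snoRNA genes with an IDR summit, 21 lay upstream, 6 inside and 12 past the 3′ end, with a median of -37 bp. The summits nearest to the 5′ end were those of K07C10.2 (3 bp), Y75B12B.12 (8 bp) and ZK484.9 (-8 bp). The farthest were those of C17H12.36 (-467 bp), M7.15 (-308 bp) and K11D9.10 (236 bp).

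These positions are coarse, because 19 of the 33 peaks had the same width of 344 bp with the summit within 1 base of the middle. The other widths went down to 90 bp. The summit of M7.15 was upstream in both replicates too, at -356 bp in replicate 1 and -324 bp in replicate 2. The summit of C17H12.36 was at -467 bp in replicate 1 but at 68 bp in replicate 2, so its place was not the same in the 2 libraries.

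At 24 of the 33 summits (72.7%) no protein-coding start lay within 500 bp, and at 9 there was such a start. The share with none was 66.7% of the summits at hosted snoRNA genes (26 of 39) and 53.3% of all IDR summits. With 1000 bp it was 17 of the 33 (51.5%), against 53.8% at hosted genes and 40.6% of all IDR summits, and none of these differences was tested. The genes of those starts, beyond the 5 already named, were srh-70, a serpentine receptor gene (at T21B4.20), sdha-1, a succinate dehydrogenase subunit gene (at D2021.6), F09G2.2 (at F09G2.14) and zen-4, a kinesin gene of cell division (at M03D4.78). A protein-coding end lay within 500 bp of 13 summits and 6 summits lay in a protein-coding gene. At 9 members the summit had no protein-coding start or end within 500 bp and lay in no protein-coding gene: K07C10.2, ZK484.11, M7.15, C34E11.20, ZK20.9, T19B4.8, W03B1.17, F17C11.24 and K11D9.10.

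The upstream element was found within 100 bases of the 5′ end, on the strand of the gene, in 25 of the 163 members (15.3%). It was found there in 10 of the 183 hosted snoRNA genes (5.46%), 28 of the 99 snRNA genes (28.3%), 5 of 19973 protein-coding genes (0.0250%) and 100 of all 46890 genes (0.213%). On the opposite strand it was found in 0 members and in 8 of all genes. In the members its first base lay a median of 63 bases before the 5′ end, and at 18 of the 25 between -65 and -57. A match is a description of letters and not a mapped binding site, and whether these letters are the proximal sequence element of snRNA genes was not tested.

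The windows around the element are given for 11 of the members with an IDR summit, in falling order of signal, so that the shared letters and the spaces between them can be compared. CGNAAC and TGTC are in capitals.
Y55F3BR.9 element: accgCGGAACtcgggaggTGTCggcc
T26A8.6 element: acggCGGAACctgaagagTGTCggcc
C16D9.10 element: tcggCGGAACtcgcagcaTGTCggcc
smy-3 element: cgagCGGAACcctcgagaTGTCcgga
Y53F4B.47 element: ggcgCGGAACccgtcactTGTCtgct
C18A3.12 element: gccgCGGAACtcgctaagTGTCgtct
C07A9.14 element: gccgCGAAACccgcgtgtTGTCggtc
K02C4.7 element: agtgCGAAACccgcgaggTGTCttct
T08B6.64 element: cgcgCGGAACtcgcattgTGTCggct
C05H8.3 element: acggCGGAACccgcgaggTGTCggga
W03B1.17 element: agcgCGGAACccgcgagtTGTCgggt

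Members with the element had IDR summits more often than those without. Of the 25 with it, 15 (60%) had an IDR summit, and of the 138 without it, 18 (13.0%). The values in the replicates were close to this: the 2082 strongest peaks held 14 of the 25 in replicate 1 and 16 in replicate 2, and 17 and 23 of the 138 without it. Because the letters were read off the strongest members, these counts are not independent of the signal. The hosted snoRNA genes were not used to find the letters: 9 of their 10 genes with the element had an IDR summit (90%), and 30 of the 173 without it (17.3%). In the 2082 strongest peaks of replicate 1 it was 7 of these 10 and 24 of the 173. In replicate 2 it was 9 and 28. The snRNA genes were not used to find the letters either: 8 of their 28 genes with the element had an IDR summit (28.6%), and 6 of the 71 without it (8.45%). With the element, an IDR summit was found at 6 of 9 spliced leader genes, 4 of 9 genes annotated as ncRNA and 1 of 3 microRNA genes. It was found at 0 of 5 protein-coding genes and 0 of 1 tRNA genes. Over all genes, which include these classes, it was 44 of 100 with the element and 3.48% without it. In the 2082 strongest peaks of replicate 1 it was 38 of these 100 and 1459 of the 46790 genes without it. In replicate 2 it was 44 and 1688.

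Among the hosted genes the element stood at the following places, shown for the 3 with the highest IDR signal. F01D5.12 had a signal of 338 (rank 17), T06D8.11 of 219 (rank 43) and C08D8.3 of 216 (rank 45).
F01D5.12 element: gccgCGGAACccgcaagtTGTCcgcc
T06D8.11 element: taggCGAAACtcgcaaggTGTCcgcc
C08D8.3 element: tcggCGAAACtcgtggagTGTCggcg

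**Figure D3:**
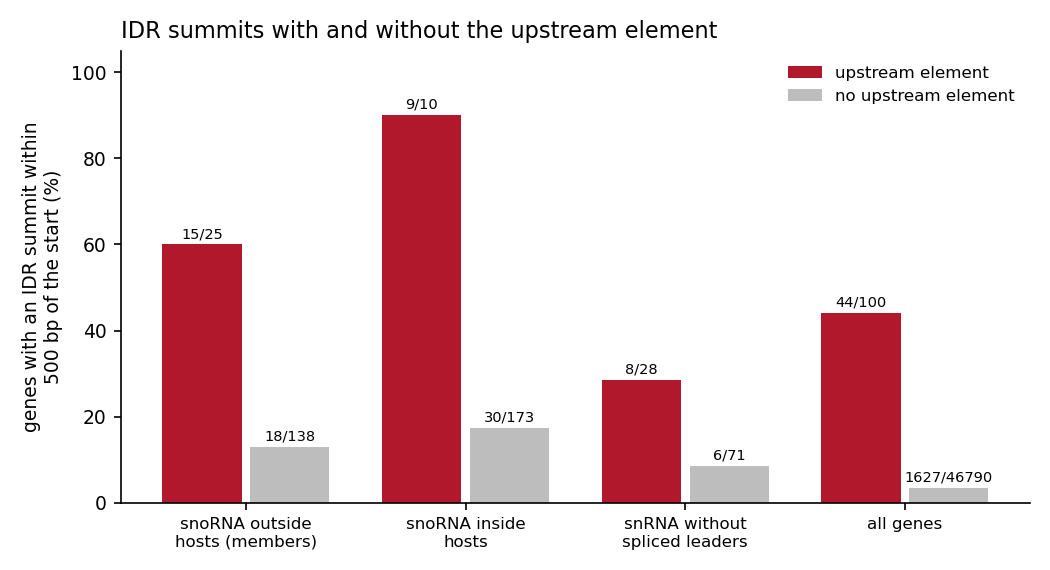
Share of genes (percent) whose start had an IDR summit no more than 500 bp away, for genes with the upstream element (red) and without it (grey), with the counts above the bars. Among snoRNA genes outside hosts the shares were 60% with it and 13.0% without it, among those inside hosts 90% and 17.3%, and among snRNA genes 28.6% and 8.45%; all genes include the other classes.

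The summits of the 15 members with the element and an IDR peak all lay downstream of the 5′ end, between 64 and 131 bp from it, with a median of 100 bp. Of these, 9 lay inside the gene and 6 past its 3′ end, and none upstream. Measured from the first base of the element, they lay 124 to 203 bp downstream, with a median of 164 bp. In the replicates' own lists the median position at the same genes was 106 bp in replicate 1, which had a summit at 14 of the 15, and 94 bp in replicate 2. The 18 members without the element had a median of -34 bp, with 11 summits upstream, 6 inside and 1 past the 3′ end. The 9 hosted genes with the element had a median of 126 bp (46 to 194 bp) and the 30 without it a median of -114 bp.

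The IDR ranks of the 15 ran from 28 to 794 with a median of 72, and those of the 18 without the element ran from 26 to 2060 with a median of 697. Of the 20 strongest members 14 had the element, and of the 13 weaker ones 1, W03B1.17. The strongest without it were W06H8.17, K07C10.2, ZK484.11 and M7.15. C34E11.20, the stronger of the only 2 members on chromosome X with an IDR summit, had no element either. The other was D2021.6.

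**Figure D4:**
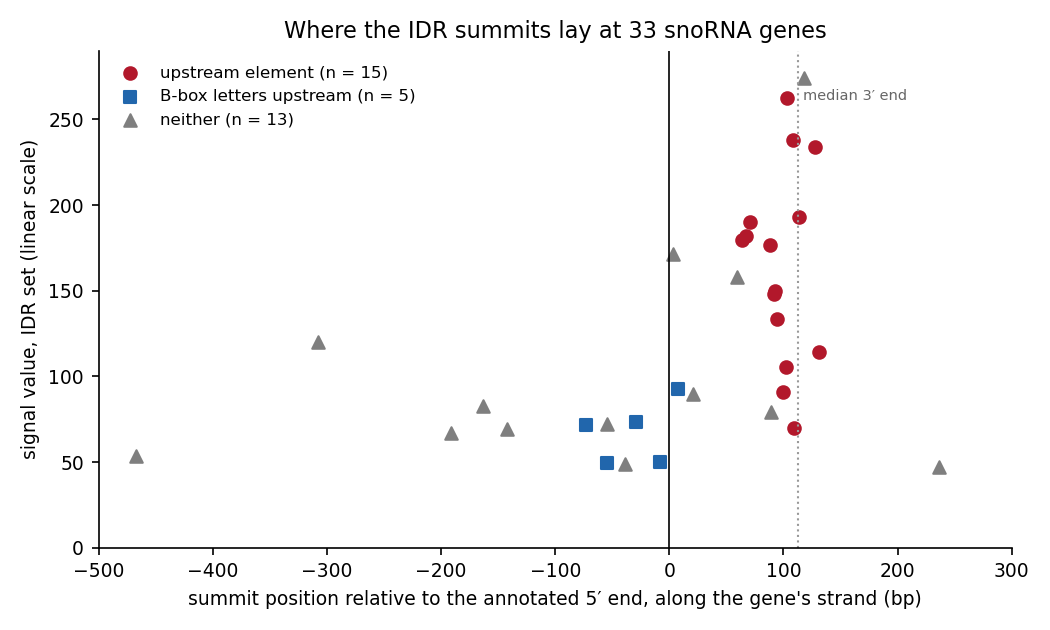
Position of the IDR summit relative to the annotated 5′ end along the gene's strand (bp, horizontal) against IDR signal value (vertical, linear) for 33 members: red circles have the upstream element, blue squares B-box letters and grey triangles neither, and the dotted line marks the median gene length of these 33, 113 bases. The 15 red points lie between 64 and 131 bp, while the blue points lie between -73 and 8 bp.

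The 10 members with the element and no IDR summit had few peaks. None of them had a summit in the full list of replicate 1, and 6 had one in replicate 2. Y67A10A.14 ranked 231 there, with a signal of 52.6 and its summit at 137 bp, and had no summit in replicate 1 or in the pooled list. F43A11.8 ranked 3652, Y48A6C.10 ranked 13819 and K02F6.11 ranked 14950, and the other 2 ranked 2622 and 27982. The remaining 4, among them C06E7.95, W05B2.9 and W07G1.23, had no summit in either replicate.
C06E7.95 element: cttgCGGAACccctgattTGTCgcct
W05B2.9 element: tcagCGGAACccctacacTGTCtgct
Y67A10A.14 element: cgagCGGAACccgtagtgTGTCggcc

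Many members with the element have near-identical sequence elsewhere in the genome. A place with at least 90% identity over at least 80% of the gene was found for 26 of the 163 members, for 14 of the 25 with the element and for 7 of the 33 with an IDR summit. F59C6.15 was 97.1% identical to F25H2.15 and likewise to Y67A10A.14, T26A8.6 was 95.6% identical to T08B6.64, and Y53F4B.47 was 98.6% identical to C05H8.3. The sources used here do not say how reads that match several places were treated, so the values of these genes are uncertain and may be split or shared between copies. W07G1.23, with 17 other such places, had no peak in any list. Without the members that have another place, 8 of 11 with the element had an IDR summit.

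A second set of letters, GTTCNANNC, was searched in the 60 bases before the 5′ end on the strand of the gene, again after sequences had been read. It matches the core of the B box, an internal promoter element that tRNA genes and other genes of RNA polymerase III carry. It was found in 20 of the 163 members (12.3%), in 11 of the hosted snoRNA genes (6.01%), in 0.751% of protein-coding genes and in 0.774% of all genes. None of the 20 had the upstream element. The windows of 3 members with both these letters and an IDR summit are shown with the letters in capitals, at chrV:15191094-15191153 (minus strand), chrIV:7574062-7574121 and chrV:11314198-11314257 (both plus strand).
Y75B12B.12 upstream: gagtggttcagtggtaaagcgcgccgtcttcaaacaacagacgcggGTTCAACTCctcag
F32E10.10 upstream: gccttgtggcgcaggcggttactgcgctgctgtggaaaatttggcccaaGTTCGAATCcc
T03F7.8 upstream: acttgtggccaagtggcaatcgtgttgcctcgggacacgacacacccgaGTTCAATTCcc

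Of these 20 members, 5 had an IDR summit (25%), against 20.2% of all members and 3.56% of all genes. The 5 were Y75B12B.12, F32E10.10, T19B4.8, ZK484.9 and T03F7.8. Their signals were 92.5, 73.4, 71.9, 49.97 and 49.2, and their ranks ran from 366 to 1849. The 5 summits lay between -73 and 8 bp of the 5′ end, 4 upstream and 1 inside the gene. In the pooled list 12 of the 20 had a summit, at a median of -32 bp and a median rank of 2653.5. The pooled share was 54.6% of all members and 22.1% of all genes. Replicate 1 had 3 of the 20 among its 2082 strongest peaks, against 19.0% of all members and 3.19% of all genes. Replicate 2 had 6, against 23.9% of all members and 3.69% of all genes. The IDR summits of the 15 genes with the upstream element lay between 64 and 131 bp. These IDR ranges of the 5 and the 15 genes did not overlap. In the pooled list the ranges did overlap, at -178 to 8 bp (12 with B-box letters) and -71 to 182 bp (17 with the element). Since the upstream element was read off the strongest members, its genes' ranks are not compared with those of genes with B-box letters. TATAAA, searched on either strand in 100 bases, was found upstream of 25 members (15.3%) and of 17.5% of all genes.

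Over the 70 members with a summit in both full lists, the ranks in the 2 replicates had a Spearman rho of 0.81, given as a description because the genes share the same 2 libraries. The members whose rank percentile, 100 being the strongest peak, differed most between replicates all lay outside the IDR set. T19E7.29 stood at 9.82 in replicate 1 and 87.0 in replicate 2, and K02A11.12 at 19.3 and 87.6. W06D12.9 stood at 5.02 and 68.0, and Y39G10AR.24 at 32.1 and 92.8. Y71G12B.41 was the exception among these 5, at 74.3 in replicate 1 and 3.47 in replicate 2. The replicate summits compared lay 662 bp apart at Y71G12B.41, 567 bp apart at W06D12.9 and 177 bp apart at T19E7.29, so the peaks set side by side there need not be the same one. At K02A11.12 and Y39G10AR.24 they lay 8 and 35 bp apart.

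**Figure D5:**
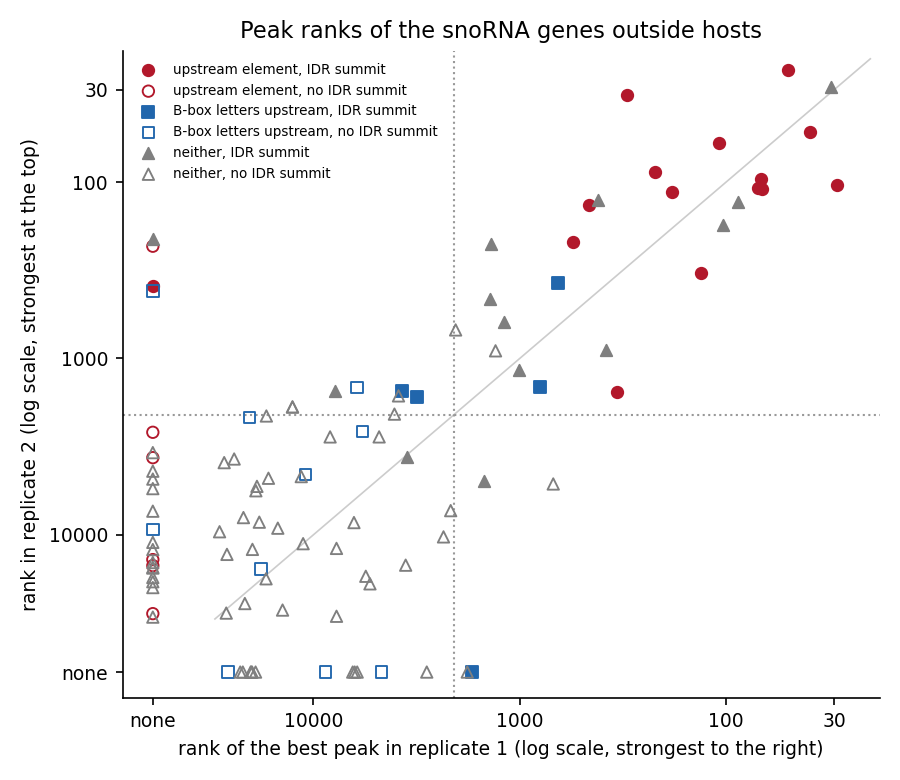
Rank of each member's best peak in replicate 1 (horizontal) and replicate 2 (vertical), both log axes with the strongest peaks at the upper right, and "none" where a list had no summit within 500 bp: red circles have the upstream element, blue squares B-box letters, grey triangles neither, filled with and open without an IDR summit, and dotted lines mark rank 2082. Filled red points gather at the upper right, 6 open red points lie at "none" for replicate 1, and the 54 members with no summit in either list are not drawn.

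Length and letters of the members with an IDR summit can be set beside those of the 130 without. Their median length was 113 bases, against 137.5 bases for the members without. Among the members with an IDR summit it was 80 bases in the 15 with the upstream element and 126 bases in the 18 without the element, against 135 bases in all 138 members without the element. The 100 upstream bases held a median of 54% G and C in the members with an IDR summit and 45% in those without. A D box was found in 15 of 33 with an IDR summit and in 23 of 130 without, a C box in 5 and in 6, and a 3′ ACA in 1 and in 19. The D box was in 11 of the 15 with the element and an IDR summit, but in 4 of the 18 without the element (22.2%), against 17.4% of all 138 without the element. Of the 25 members with the upstream element, 14 had a D box, 5 a C box and 0 a 3′ ACA. The exact letters searched miss variant boxes, so members without a match are not thereby outside these classes.

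By chromosome, members with an IDR summit numbered 7 of 38 on I, 6 of 36 on II, 3 of 16 on III, 8 of 31 on IV, 7 of 19 on V and 2 of 23 on X. Of the 38 members antisense to a protein-coding gene, 6 had an IDR summit, all with their middle in an intron. Of the 7 members inside another same-strand gene, 2 had one, W06H8.17 and K07C10.2. The share was 20.2% over all members and 3.56% over all genes. Shares of all genes were not counted by chromosome or by such positions. Differences between these small groups were not tested, so they are not read as traits of the snoRNA genes. Among the 130 members without an IDR summit, 4 were among the 2082 strongest peaks of replicate 1, against 3.19% of all genes. In replicate 2 it was 9 of the 130, against 3.69% of all genes.

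The proteins that bind snoRNAs or assemble their particles were looked up by the same window at their gene starts, in a list of 12 genes. Of these, 4 had an IDR summit (33.3%), against 20.2% of the snoRNA genes outside hosts, 5.57% of protein-coding genes and 3.56% of all genes. In the stronger part of the IDR set, its 1041 strongest peaks, this was 1 of 12 (8.33%), against 28 of the 163 snoRNA genes (17.2%). The order of the 2 groups thus turned round, but it rests on few snoRNP genes and was not tested. Shares of all genes and of protein-coding genes were not counted at that cut. nola-3, the NOP10 homologue of box H/ACA particles, had an IDR signal of 71.1 (rank 748), and the start of C25A1.16 shares its summit. tgs-1, whose product hypermethylates the caps of small RNAs, had 60.3 (rank 1148). dkc-1, which encodes the pseudouridine synthase of H/ACA particles, had 53.5 (rank 1522) with the start of ran-1 beside it, and garr-1, the GAR1 homologue, had 52.5 (rank 1576).

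None of the core box C/D protein genes had an IDR summit, but each had a summit in both full replicate lists. The pooled signals were 46.1 at nol-58, 42.8 at snu-13, 38.6 at nol-56 and 19.3 at fib-1, which encodes the methyltransferase fibrillarin. dao-5, a nucleolar phosphoprotein gene, had 36.8 and ruvb-1, an assembly ATPase gene, had 24.5. Y48A6B.3, the NHP2 homologue, had no pooled summit but ranked 686 in replicate 1 and 1813 in replicate 2. ruvb-2 had no summit in any list, so 11 of the 12 had one in both replicates, against 21.6% of protein-coding genes. The 2 summits need not be the same peak. They lay at -149 bp in replicate 1 and 403 bp in replicate 2 at fib-1, and at -243 and 201 bp at nol-56. Limited to the 2082 strongest peaks, 4 of the 12 were found in replicate 1, against 4.55% of protein-coding genes. In replicate 2 it was 6, against 5.90%. Within the IDR set the strongest of the 12, nola-3, ranked below 25 of the snoRNA genes outside hosts.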

How the data were processed

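Per the labels, 2 biological replicates of whole N2 L4 larvae were analysed by ChIP-seq against ama-1, as 1 group. Per the notes deposited with the samples, each replicate's list and a pooled list were called on build ce11 alignments with a control, and an IDR set was made from all 3. Not given in the sources used here are the aligner, the peak caller, versions, the IDR threshold and the treatment of reads that match several places; the control was not analysed here and read depth is unknown. Each deposited peak carries a score, the signal value of the authors' caller, which was used only to rank or describe peaks within a list. The deposited summit offset was added to the peak start. The ce10 lists were not used.

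Genes came from Ensembl release 115 (WBcel235), sequence from the RefSeq genome of the same assembly, in which all 163 members had the same span. A gene counted when a summit lay within 500 bp of its outermost 5′ end, and the peak of highest signal stood for it. Replicate values used each list's 2082 strongest peaks; 95% Clopper-Pearson intervals, means and SDs used Python 3.11.15, pandas 2.3.3, numpy 2.4.6 and scipy 1.17.1. Copies were searched with blastn 2.17.0. Counting was tested on simulated data. Whether the replicates came from separate cultures is not stated.

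The members and lists were chosen with earlier results of these data known, and both upstream letter sets after sequences of strong members had been read. The genes named are the 20 members of highest IDR signal, the 5 with the largest replicate difference, the 3 on either side of the edge of the IDR set, the 3 nearest and 3 farthest summits, the snoRNP list and protein-coding genes that share a summit. Members named for their letters, copies or lack of a peak were chosen after their values were seen. Alternatives were windows of 250 and 1000 bp, the 1041 strongest IDR peaks, the 4164 strongest pooled peaks, peak intervals, nearest summits, other host rules, merging of neighbours and each replicate alone. Leaving out members with copies was added after seeing the data.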

Additional observations from a re-analysis of the deposited data

How the results depend on the processing

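No paired analysis was possible because the samples form 1 group. Of 86 alternative values, 79 stayed within 1.5 times the main count or within the spread of the replicates, and 7 moved. All but the median summit position are counts or means of counts, which have no direction to reverse. That median stayed positive in each of these settings. The full lists were not among them. There the median was -8 bp in the pooled list (89 members), 15 bp in replicate 1 and 23.5 bp in replicate 2. The order of the snoRNP and snoRNA shares, which turned round with the 1041 strongest IDR peaks, is not among the 86 alternative values either. The count of members with an IDR summit ran from 26 to 45 (main value 33 of 163), and from 31 to 39 with either replicate alone. The lowest counts came from smaller sets of members. They were 26 of 137 without members that have another place in the genome, and 27 of 124 without overlap with a protein-coding gene on either strand. Over single replicates, the members with a peak, 70 in both, numbered 85 to 94, those among the strongest peaks 31 to 39 (mean 35), those away from protein-coding starts 23 to 26 (main value 24, and 17 when a start within 1000 bp counts), those with the upstream element 14 to 16 (main value 15) and the snoRNP genes 4 to 6 (main value 4). The median summit position, 67 bp, was 89 bp with a window of 1000 bp, 50 bp with the 4164 strongest pooled peaks, 51 to 71 bp with either replicate alone, and 14.5 bp without members that have another place in the genome. That last choice, added after seeing the data, also left 8 members with the upstream element and an IDR summit, because it left out 14 of the 25 with the element. The snoRNP genes with an IDR summit numbered 1 with the 1041 strongest IDR peaks and 8 with the 4164 strongest pooled peaks. The count in both replicates has no value under the last 2 settings, which concern the IDR set, and host rules and merging do not apply to the snoRNP genes.

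The lists hold no read counts, so depth sets no limit that can be given here, and a gene without a peak is not shown to lack polymerase. Absence of a peak in 1 replicate cannot be told from low depth. With 2 replicates and no second group there is no test.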
